A study of Mus musculus with 6 samples.

Results

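The deposited count table was read for 6 genes: Rps6kb1 and Rps6kb2, which encode the S6 kinases S6K1 and S6K2, Eif4ebp1 and Eif4ebp2, which encode the 4E-BP repressors, Eif4e, which encodes the protein that binds the cap of an mRNA, and Pdcd4, which encodes an inhibitor of the helicase eIF4A. They were chosen by name as the effectors that carry the signal of mTORC1 to translation, and they make up 6 of the 19060 genes in the table. All 6 passed the filter on low counts, which left 15826 genes for testing.

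RNA was sequenced from the proximal incisor of 3 control and 3 mutant samples. By the extraction protocol in the labels, control mice were Fgfr1fl/fl, with loxP sites around both Fgfr1 alleles, although their genotype label reads wild type. Mutant mice were Gli1CreER;Fgfr1fl/fl (Gli1-Cre;Fgfr1fl/fl in the labels). Tissue of both genotypes was collected 1 week after tamoxifen, and the labels give an age of 1 month. Because Cre is driven from Gli1 and is active only with tamoxifen, cells outside the Gli1+ lineage kept an intact Fgfr1 and were part of every mutant sample.

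The kinase complex mTORC1 promotes translation through both branches that these genes encode. It phosphorylates the S6 kinases, which then phosphorylate ribosomal protein S6, eIF4B, the kinase of elongation factor 2 and PDCD4, and it phosphorylates the 4E-BPs, which releases eIF4E so that it can join eIF4G and eIF4A at the cap. These are steps between proteins, and sequencing of RNA measured only how much mRNA each gene gave.

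The S6 kinases and the 4E-BPs share a docking sequence for mTORC1, the TOS motif, and the 4E-BPs share a second stretch that binds eIF4E. Their coding sequences (GENCODE M21, GRCm38) are shown because paralogs were compared with each other, which needs reads that tell them apart. Capitals mark the codons of the eIF4E-binding motif. The sequence shown runs from exon 1 into exon 2 of each gene, at chr8:27260547-27273375 on the forward strand for Eif4ebp1 and at chr10:61435051-61452405 on the reverse strand for Eif4ebp2.
Eif4ebp1: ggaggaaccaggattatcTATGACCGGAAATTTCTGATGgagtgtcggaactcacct
Eif4ebp2: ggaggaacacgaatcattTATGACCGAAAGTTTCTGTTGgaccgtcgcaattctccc

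Of the 21 bases in capitals, 18 were identical between the paralogs, against 43 of all 57 bases shown. The TOS codons, again in capitals, lie at the end of the coding sequence in both 4E-BP genes, across the junction of exons 2 and 3 in the stretches shown (chr8:27273499-27275111 and chr10:61433797-61434921). In the S6 kinase genes they lie in exon 1, near the start of the protein (chr11:86544593-86544643 and chr19:4163201-4163245, both on the reverse strand).
Eif4ebp1: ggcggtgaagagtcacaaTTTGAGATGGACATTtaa
Eif4ebp2: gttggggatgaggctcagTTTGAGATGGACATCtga
Rps6kb1: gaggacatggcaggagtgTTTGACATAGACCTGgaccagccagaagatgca
Rps6kb2: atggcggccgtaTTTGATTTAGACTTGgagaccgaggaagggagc

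The 15 TOS bases matched at 14 positions between the 4E-BP genes and at 12 between the S6 kinase genes. A protein match to the TOS motif was present in 1.29% of 21473 coding genes, and one to the looser eIF4E-binding motif in 20.6%. Along the whole transcripts, the longest identical run was 14 bases for Eif4ebp1 and Eif4ebp2, and also 14 bases for Rps6kb1 and Rps6kb2. A read of 75 bases therefore could not match both members of a pair exactly.

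The 3 control libraries held between 31060222 and 32712448 counts, and the mutant libraries 5276557, 11819576 and 11358282 counts. Values are given as CPM, counts scaled to libraries of one common size by the upper quartile. Fgfr1, the deleted gene, read 529, 924 and 434 CPM in controls 1 to 3 and 148, 318 and 262 CPM in mutants 1 to 3, without overlap, a log2 fold change of -1.37 with a standard error of 0.40 (adjusted p = 0.0881, edgeR's quasi-likelihood test). Markers of dental mesenchyme, odontoblasts and dental epithelium were all detected in every library. Col1a1 was listed for both mesenchyme and odontoblasts, so the sums of these lists are not separate readings. The summed markers of dental epithelium were lower in the mutant samples (30300 to 67100 CPM, against 83800 to 117000), those of endothelium were lower (111 to 115 against 131 to 220) and those of erythroid cells were higher (924 to 2550 against 379 to 822), while the sums for mesenchyme, odontoblasts, muscle, macrophages and Schwann cells overlapped. None of the 7 epithelial and 4 endothelial markers passed the study's threshold (given next) alone, and of the 5 erythroid markers 2 were higher and 1 lower past it. In bulk tissue, fewer cells of a type and less RNA per cell cannot be told apart. The labels number the samples within each genotype without saying what a number shares, or whether a sample is a single mouse or a pool. The p-values weigh the difference between genotypes against the spread among samples of the same genotype. Every mutant library was smaller than every control library, and the suffixes S2 and S3 occur in library names of both genotypes. The sources used here do not say whether both genotypes were sequenced in the same run. The part of the run in the differences between genotypes was not tested.

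One of the 6 genes, Eif4ebp2, passed the study's threshold (over 1.5-fold, with p below 0.05 before adjustment), and it was lower in the mutant samples. Over all genes tested, 19.8% passed this threshold, with 8.92% lower and 10.9% higher (1726 of 3137 calls higher, against 1253 of 3588 with total counts as the scaling), so the count for the 6 genes lies near the background. None of the 6 had an adjusted p under 0.05 with edgeR, where 6.79% of all genes did, and 1 had an unadjusted p under 0.05. DESeq2 gave 1 of the 6 an adjusted p under 0.05, beside 1609 of all 15826 genes tested. Of the log2 fold changes, 4 were positive and 2 negative, with a median of 0.21, beside -0.04 over all genes. The 95% intervals of 5 genes held a log2 fold change of 0.

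**Figure D1:**
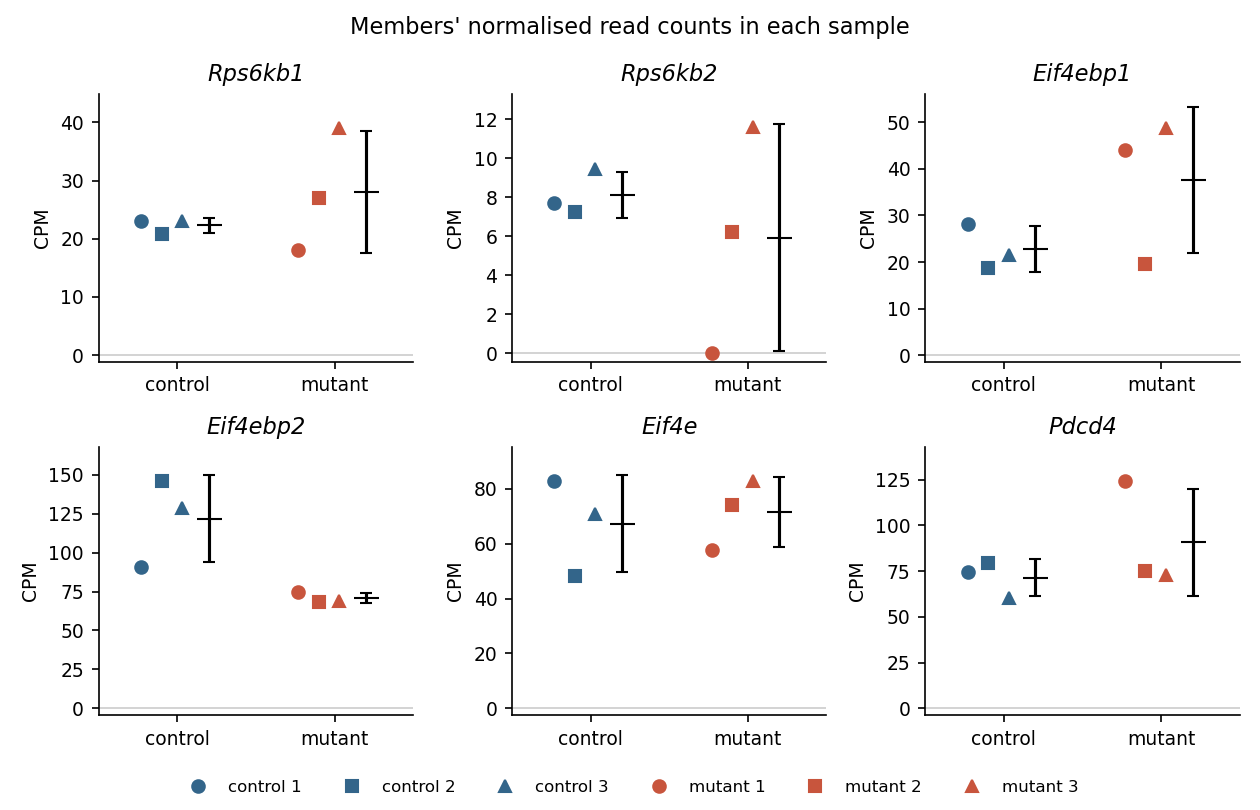
Normalised read counts (CPM, vertical axis, a separate linear scale for each gene) of the 6 genes in the 3 control and 3 mutant samples; shapes mark the replicate number, and the bar beside each group is the mean with 1 SD (n = 3). Only for Eif4ebp2 do the groups not overlap, with mutant samples at 68.5 to 74.6 CPM and control samples at 91.0 to 146 CPM.

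Eif4ebp2 encodes 4E-BP2, one of the repressors that compete with eIF4G for eIF4E. Controls read 91.0, 146 and 128 CPM and mutants 74.6, 68.5 and 69.2 CPM. Every mutant sample lay below every control sample, and the mutant samples lay close together. The mean was 122 ± 28.1 CPM in control and 70.8 ± 3.36 CPM in mutant samples (SD, n = 3). The log2 fold change was -0.78 (standard error 0.24, 95% interval -1.34 to -0.23), which is 0.581 of the control level. By edgeR's quasi-likelihood test p was 0.01135 before and 0.105 after adjustment. Groups that did not overlap, with the mutant samples lower, were found for 16.3% of all genes tested, and with the mutant samples higher for 14.1%.

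The lower level of Eif4ebp2 passed the study's threshold without each library in turn, with unadjusted p-values between 0.004271 and 0.0415 from edgeR. It no longer passed after correction for a trend in each sample with the length of the transcript and its GC content, where the log2 fold change was -0.30 and the unadjusted p 0.153. The markers of dental epithelium and of endothelium were also lower in the mutant samples, and their part in this result was not tested. No 75-base stretch of the longest Eif4ebp2 transcript occurred in another annotated gene. The gene lies on chromosome 10, from 61428491 to 61452661 (ENSMUSG00000020091.15).

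Eif4ebp1 encodes 4E-BP1, its paralog and the most studied substrate of mTORC1 in this branch. Controls read 28.2, 18.7 and 21.4 CPM and mutants 44.1, 19.6 and 48.9 CPM. Mutant samples 1 and 3 lay above all controls, while mutant sample 2 lay within the control range, so the groups overlapped. This gave a log2 fold change of 0.72 (standard error 0.40, 95% interval -0.20 to 1.64), with an adjusted p of 0.379 from edgeR. Without mutant replicate 2 it was 1.02 with an unadjusted p of 0.0155, past the study's threshold, so that sample decided whether the gene was called. Eif4ebp1 lies on chromosome 8, from 27260329 to 27276674 on the forward strand (ENSMUSG00000031490.6).

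Eif4e encodes the cap-binding protein that both 4E-BPs hold. Controls read 82.9, 48.2 and 70.9 CPM and mutants 57.6, 74.0 and 82.9 CPM. Both the lowest value and one of the highest came from control samples, and the mutant range lay inside the control range. This gave a log2 fold change of 0.09 (standard error 0.27, 95% interval -0.54 to 0.72), with an adjusted p of 0.910 from edgeR. Its sign turned under other scalings, to -0.0022 with TMM and -0.16 with total counts, so no direction can be given. The interval holds changes from 0.686 to 1.65 times the control level. Eif4e lies on chromosome 3, from 138526179 to 138559696 on the forward strand (ENSMUSG00000028156.12), and 3.84% of its 75-base stretches also occurred in Gm7327.

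Rps6kb1 encodes S6K1, the main kinase of ribosomal protein S6. Controls read 23.0, 20.8 and 23.1 CPM and mutants 18.1, 27.0 and 39.1 CPM. The controls agreed closely, and the mutant samples lay on both sides of them, with mutant sample 1 lowest and mutant sample 3 highest. The coefficient of variation was 5.96% in control and 37.5% in mutant samples. For S6K1 mRNA the log2 fold change was 0.34 (standard error 0.36, 95% interval -0.50 to 1.17), with an adjusted p of 0.692 from edgeR, and it was -0.29 after the correction for length and GC content. The gene lies on chromosome 11, from 86498871 to 86544805 on the reverse strand (ENSMUSG00000020516.15).

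Rps6kb2 encodes S6K2, the second S6 kinase, and was the lowest of the 6 genes per kilobase of transcript in the control samples. Controls read 7.72, 7.23 and 9.48 CPM and mutants 0, 6.23 and 11.6 CPM. Mutant sample 1 held 0 counts of Rps6kb2, which allows up to 0.655 CPM (3 counts, counting error only), while mutant sample 3 held the highest value of all 6. Among the 2412 genes with a control mean between 5 and 12 CPM, 24.1% were at 0 in mutant sample 1, 2.78% in mutant sample 2, 5.85% in mutant sample 3 and at most 0.0415% in a control sample. The log2 fold change was -0.44 with a standard error of 1.22 (95% interval -3.24 to 2.36) and an adjusted p of 0.898 from edgeR. Without mutant replicate 1 it was 0.11, so the sign rested on that library. The gene lies on chromosome 19, from 4153991 to 4163354 on the reverse strand (ENSMUSG00000024830.17). Ptprcap, on the opposite strand, shared 1224 exon bases with it, and 22.3% of the 75-base stretches of the longest Rps6kb2 transcript occurred in Ptprcap; the sources used here do not say whether strand was used in counting.

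Pdcd4 encodes an inhibitor of eIF4A that S6 kinase marks for degradation. Controls read 74.6, 79.6 and 60.1 CPM and mutants 124, 75.3 and 72.7 CPM. Mutant sample 1 stood above the other 5 samples, and the other two mutant samples lay within the control range. The log2 fold change was 0.34 (standard error 0.28, 95% interval -0.29 to 0.98), with an adjusted p of 0.574 from edgeR, and it was -0.11 after the correction for length and GC content. Pdcd4 lies on chromosome 19, from 53892231 to 53929860 on the forward strand (ENSMUSG00000024975.13), and no 75-base stretch of its longest transcript occurred in another gene.

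In 4 of the 6 genes the coefficient of variation was larger among mutant than among control samples, as it was for 73.5% of all genes tested. Eif4ebp2 and Eif4e were the exceptions. For Eif4ebp2 the coefficient of variation was 23.1% in control and 4.75% in mutant samples.

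**Figure D2:**
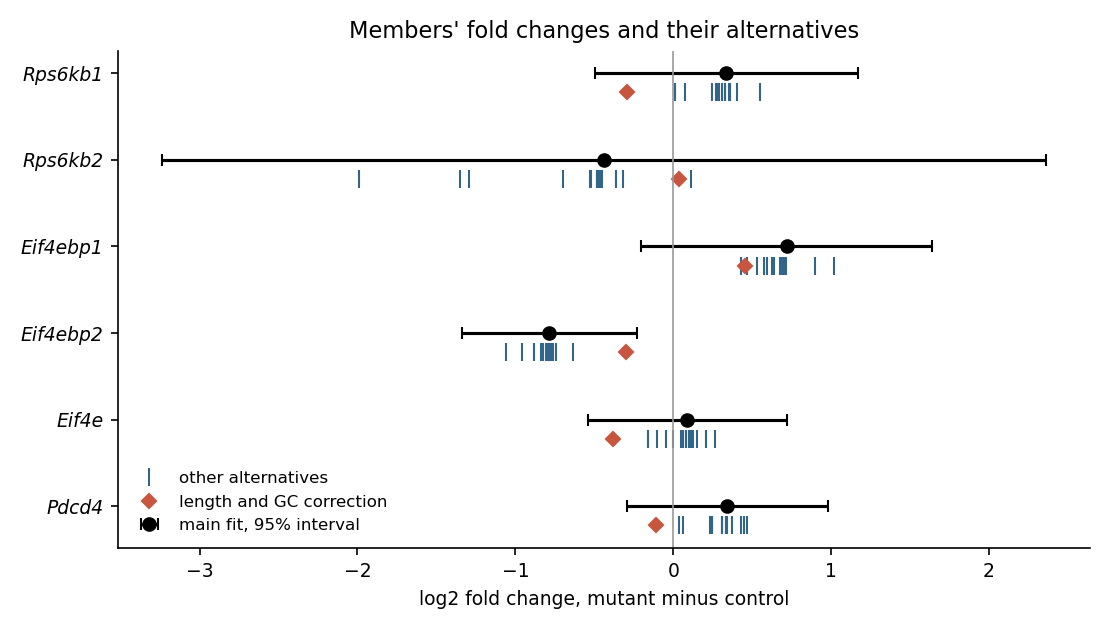
Log2 fold change of mutant over control (horizontal axis) for each gene, as a black point with its 95% interval, the value after correction for transcript length and GC content as a diamond, and the other 14 alternatives as ticks. All values of Eif4ebp2 lie below 0, from -1.06 to -0.30, and all values of Eif4ebp1 above 0, from 0.43 to 1.02, while those of the other 4 genes fall on both sides of 0.

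Levels of different genes were compared per kilobase of the longest coding transcript. In the control samples Pdcd4 was highest (29.7 ± 4.21 CPM per kilobase, SD, n = 3), followed by Eif4ebp2 (21.1 ± 4.86), Eif4e (13.5 ± 3.54), Eif4ebp1 (11.4 ± 2.44), Rps6kb1 (4.03 ± 0.24) and Rps6kb2 (1.78 ± 0.258). Neighbours in this order overlapped in their ranges from Pdcd4 down to Eif4ebp1, and the S6 kinase genes lay apart from them and from each other. In the mutant samples Pdcd4 was again highest (37.7 ± 12.1 CPM per kilobase), and Eif4ebp1 (18.8 ± 7.85), Eif4e (14.3 ± 2.57) and Eif4ebp2 (12.2 ± 0.581) followed, with ranges that overlapped. The S6 kinase genes were the lowest in both groups, at 5.07 ± 1.90 for Rps6kb1 and 1.30 ± 1.26 for Rps6kb2 in the mutant samples. The lengths came from the annotation, and the isoforms used in the incisor were not measured.

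Ratios between members were taken within each sample, on counts per kilobase, because a ratio does not depend on how libraries are scaled. In all, 4 ratios were compared with an exact permutation test (two-sided), which cannot go below p = 0.1 with 3 samples against 3.

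The ratio of Eif4ebp1 to Eif4ebp2 came to 0.897, 0.371 and 0.483 in controls and to 1.71, 0.831 and 2.04 in mutants. Eif4ebp2 thus made up 52.7, 72.9 and 67.4% of the 4E-BP mRNA per kilobase in the controls and 36.9, 54.6 and 32.8% in the mutant samples. By counts without the length, its share was 76.3, 88.6 and 85.7% in controls and 62.9, 77.7 and 58.6% in mutants. Which of these genes led in mutant samples 1 and 3 therefore depends on the length used. Mutant samples 1 and 3 lay above every control, and mutant sample 2 fell just under control sample 1. The mean log2 ratio was -0.88 ± 0.65 in control and 0.51 ± 0.69 in mutant samples (SD, n = 3), a difference of 1.39 or 2.62-fold (exact permutation p = 0.2, 0.4 after Benjamini-Hochberg adjustment over the 4 ratios). The groups overlapped, and the log2 difference was 0.67 after the correction for length and GC content.

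The ratio of both 4E-BP genes together to Eif4e came to 1.80, 3.59 and 2.32 in controls and to 3.03, 1.46 and 2.19 in mutants. The groups overlapped, with the highest and the second-lowest value among controls. The log2 difference was -0.21 (exact permutation p = 0.7, adjusted 0.7), and its sign turned without control replicate 2 or without mutant replicate 2 and after the correction for length and GC content.

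The ratio of Rps6kb1 to Rps6kb2 came to 2.47, 2.38 and 2.02 in controls and to 3.59 and 2.80 in mutant samples 2 and 3. Mutant sample 1 held 83 counts of Rps6kb1 and 0 of Rps6kb2, and its ratio was 22.9 with Rps6kb2 set to the floor of 3 counts. That floor covers counting error only, and 24.1% of genes at this level were at 0 in this library, so 22.9 is not a firm lower bound. All mutant values lay above all control values, and the log2 difference was 1.43 with that floor (exact permutation p = 0.1, the smallest possible, 0.4 adjusted). Without mutant replicate 1 the log2 difference was 0.47, so its size rested on the library in which genes at this level were most often at 0. After the correction for length and GC content it was 0.30, again with mutant sample 1 at the floor. The corrected ratios of mutant samples 2 and 3 lay below every corrected control ratio. The positive sign after correction therefore rested on mutant sample 1.

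PDCD4 acts by binding eIF4A, so Pdcd4 was also set against Eif4a1. The ratio of Pdcd4 to Eif4a1 came to 0.0891, 0.163 and 0.0770 in controls and to 0.143, 0.102 and 0.0928 in mutants, all within the control range. The log2 difference was 0.09 (exact permutation p = 0.7, adjusted 0.7). Of the 75-base stretches of Eif4a1, 62.9% occurred in other annotated genes, among them pseudogenes, so its count is uncertain.

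**Figure D3:**
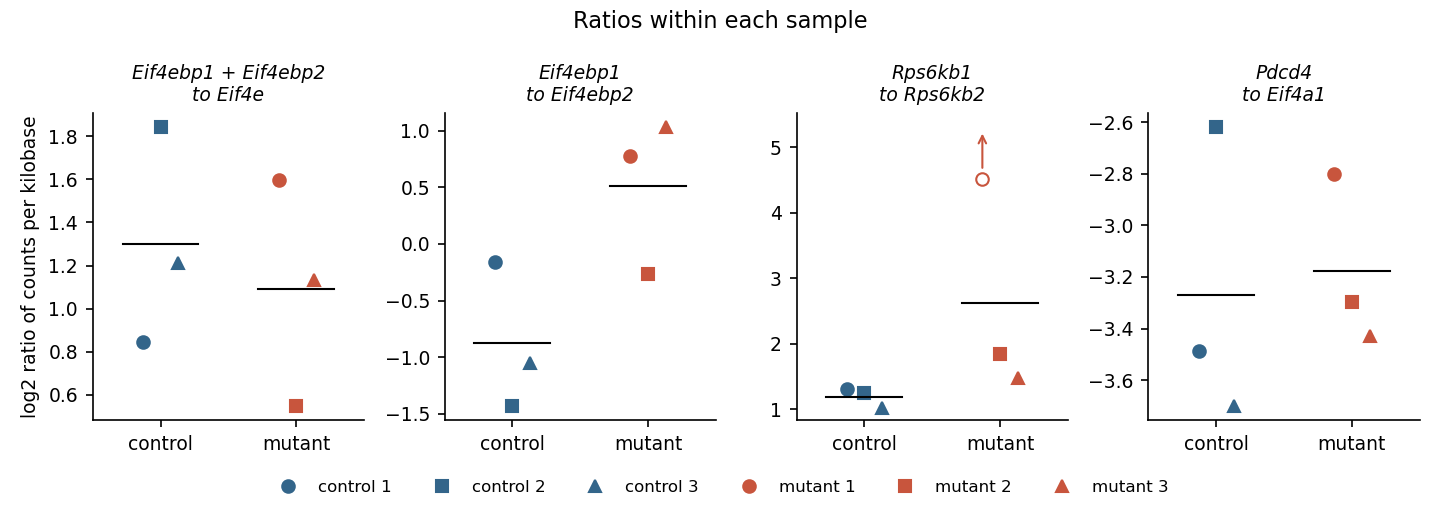
Log2 ratios of counts per kilobase (vertical axis, a separate scale in each panel that does not start at 0) in each control and mutant sample, with shapes for the replicate number and a line at the group mean. The open circle with an arrow is mutant sample 1, which held 0 counts of Rps6kb2, with that gene set to the floor of 3 counts. This floor covers counting error only, so the point is not a firm lower bound. Only in the panel of Rps6kb1 to Rps6kb2 do the groups not overlap.

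The genes around the 6 were described in 6 lists, of which 51 of 52 symbols were in the table and were tested (Skp1 was present as Skp1a, also listed). Of these, 6 were higher and 5 lower past the study's threshold, beside the 10.9% and 8.92% over all genes, and their median log2 fold change was -0.27. After the correction for length and GC content 3 were higher (Eif4e2, Rheb and Mcl1) and 1 lower (Eif4g1), and the other 7 no longer passed. TMM scaling gave 4 higher and 7 lower genes, and total counts gave 4 and 10. Without control replicate 2 the counts were 5 higher and 2 lower, and without control replicate 3 they were 2 and 3. The calls over all genes moved too. In the main fit 1726 of 3137 calls were higher, with TMM 1518 of 3251, with total counts 1253 of 3588 (15826 genes tested in each). After the correction 979 of 2284 were higher (15718 tested). Without control replicate 2 it was 1375 of 2244 (15490 tested), and without control replicate 3 it was 1230 of 2006 (15600 tested).

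Targets of the S6 kinases come first. Of 8 substrates and adaptors, 1 was higher and 1 lower, with a median of -0.45. Rps6, which encodes ribosomal protein S6, read 1774, 723 and 1396 CPM in controls and 2654, 2602 and 3015 CPM in mutants, without overlap. The log2 fold change of 1.09 (standard error 0.39) had a p of 0.0239 before and 0.163 after adjustment in edgeR. The correction for length and GC content took it to -0.0051, and 84.1% of the 75-base stretches of Rps6 also occurred in other annotated genes, among them its pseudogenes. Rps6 also missed the threshold without control replicate 3, mutant replicate 2 or mutant replicate 3. Poldip3, which encodes the adaptor SKAR, had a log2 fold change of -0.62 with an adjusted p of 0.246 from edgeR, and it passed the study's threshold under only 7 of the 15 alternatives, among the left-out replicates only without mutant replicate 2. Eif4b, whose product stimulates eIF4A, stood at -0.53 with an adjusted p of 0.460, and Eef2k, whose product inhibits elongation factor 2, at -0.75 with an adjusted p of 0.790; neither passed the threshold.

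Of 12 genes of the cap-binding complex and the partners of eIF4E, 2 were higher and 1 lower, with a median log2 fold change of -0.01. Eif4g1 encodes the scaffold eIF4G1, which the 4E-BPs keep away from eIF4E. Controls read 131, 232 and 211 CPM and mutants 79.2, 76.4 and 92.6 CPM, without overlap. With a log2 fold change of -1.21 (standard error 0.27), it was the only gene of the 6 lists with an adjusted p under 0.05 in edgeR (0.0464). The number with an adjusted p under 0.05 was 6 with DESeq2 (Eif4g1, Skp1a, Rps6, Eif4a2, Mknk2 and Rheb). It was 2 each with limma-voom and with total counts, 1 with TMM and 1 with the replicate number as a block (Rheb, in place of Eif4g1). Under the other 10 alternatives it was 0, among them each left-out replicate and the correction for length and GC content. Over all genes tested the number was 1074 of 15826 in the main fit, 1609 of 15826 with DESeq2 and 130 of 15718 after that correction. Eif4a2, which encodes a form of the helicase, was at 0.95 (adjusted p = 0.120 from edgeR) and Eif4e2, which encodes a cap-binding homolog that represses translation, at 0.65 (adjusted p = 0.186), both past the study's threshold. Eif4a2 no longer passed without control replicate 3 or mutant replicate 1, and Eif4e2 no longer passed with TMM, with total counts, or without control replicate 2, control replicate 3 or mutant replicate 3. Eif4a1 stood at 0.18 with an adjusted p of 0.805.

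The next list held 12 genes: those of mTORC1 and its regulators, with Larp1 and the eIF4E kinase genes Mknk1 and Mknk2. In this list 1 gene was higher and 1 lower, with a median of -0.38. Rheb, the GTPase that activates mTORC1, read 71.9, 36.8 and 57.4 CPM in controls and 164, 93.0 and 99.7 CPM in mutants, a log2 fold change of 1.101 (standard error 0.33, adjusted p = 0.09998 from edgeR). Mknk2, which encodes a kinase that phosphorylates eIF4E on the eIF4G scaffold, read 70.4, 114 and 97.1 CPM in controls and 60.0, 44.1 and 43.6 CPM in mutants, a log2 fold change of -0.93 (standard error 0.27, adjusted p = 0.0844). In both genes the groups did not overlap. The kinase Mtor (-0.28), the adaptor Rptor (-0.62), which binds the TOS motif, the kinase Mknk1 (-0.18) and Larp1 (-0.29), a repressor of the mRNAs of ribosomal proteins, did not pass the threshold, with adjusted p-values of 0.745, 0.481, 0.959 and 0.717 from edgeR.

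Of 8 related kinases, 2 were lower and 0 higher, with a median log2 fold change of -0.40. These were Rps6ka1, at -1.23 (adjusted p = 0.163 from edgeR), and Rps6ka2, at -1.55 (adjusted p = 0.228), which encode kinases that act below ERK. Neither passed without control replicate 2 or control replicate 3, nor did Rps6ka2 without control replicate 1. Of the 5 genes tested for degradation of PDCD4 by its ubiquitin ligase, 1 was higher and 0 lower, with a median of -0.14. This gene was Skp1a, an adaptor subunit, at 1.17 with an adjusted p of 0.0659. Of 6 transcripts known to depend on eIF4E for translation, 1 was higher and 0 lower, with a median of 0.07. That gene was Mcl1, which encodes an inhibitor of cell death, at 0.63 with an adjusted p of 0.159, and it missed the threshold with TMM, with total counts, and without control replicate 3, mutant replicate 1 or mutant replicate 2.

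**Figure D4:**
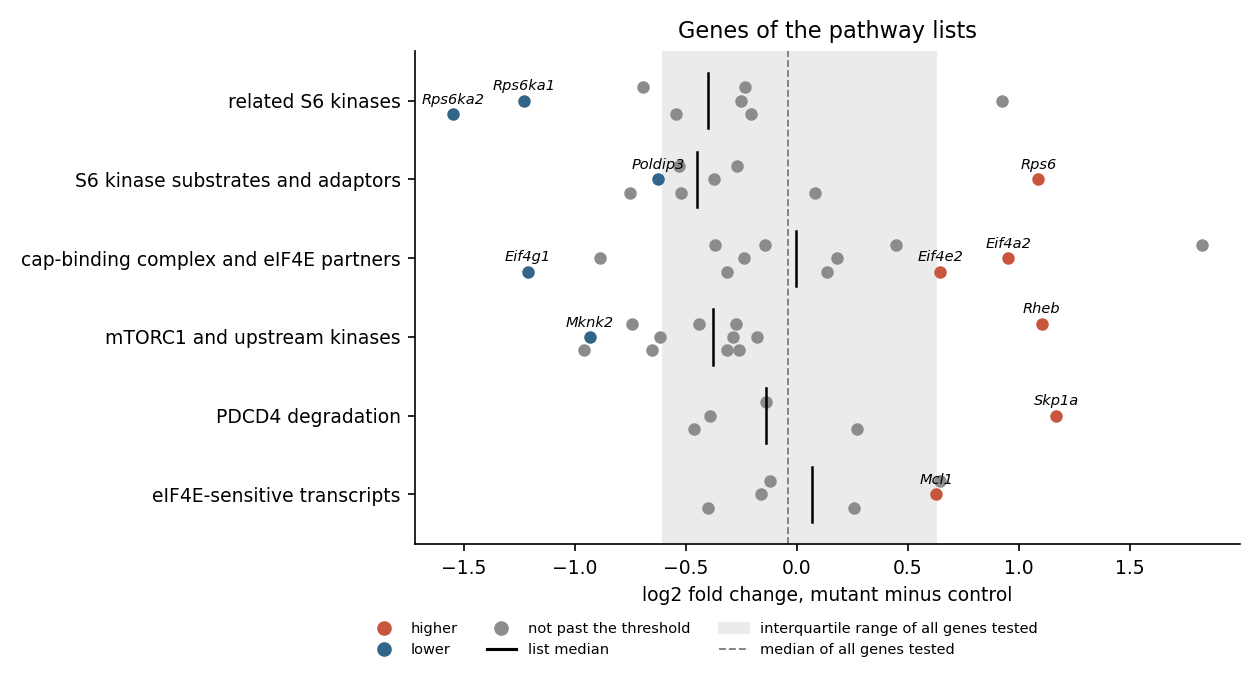
Log2 fold change of mutant over control (horizontal axis) for the 51 tested genes of the 6 lists; coloured and named points passed the study's threshold, grey points did not, black lines are list medians, and the band and dashed line give the interquartile range and the median (-0.04) of all genes tested. The list medians lie between -0.45 and 0.07, inside the band.

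The genes with the pattern most like each of the 6 over the 6 samples were found by the smallest root mean square difference of centred log2(CPM + 1) values, among genes with a mean of at least 10 CPM. For Eif4ebp2 they were Usp19 (difference 0.0545) and Agap3 (0.0933), with log2 fold changes of -0.82 and -0.90. For Eif4ebp1 they were 3830406C13Rik (0.0655) and Rdm1 (0.0927), each high in mutant samples 1 and 3 and low in mutant sample 2. Eif4e was most like Sephs2 (0.0483) and Stoml2 (0.0505), and Pdcd4 most like Smap1 (0.0848) and Rilpl1 (0.0885). Rps6kb1 was nearest to Ubxn2b (0.0707) and to Eif4e3 (0.0836), a cap-binding homolog of the list above, which had 12.8, 12.3 and 11.9 CPM in control and 11.3, 15.7 and 23.3 CPM in mutant samples. Rps6kb2, with its 0 in mutant sample 1, was nearest to Zfp326 and Hsf1 (both 0.159), which had 0.873 and 1.09 CPM in that sample.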

How the data were processed

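The authors trimmed and aligned single reads of 75 bases to mm10 (Partek Flow), and the table they deposited holds estimated counts of each gene without normalization. TopHat2 2.0.8 is named in the submitters' processing notes. The counting model, annotation and use of strand are not given in the sources used here. A second deposited table holds the authors' own comparison (p-values and fold changes) and was not used.

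Counts were rounded, scaled by the upper quartile and tested with edgeR 4.0.16 (R 4.3.3; default filter, minimum count 10 and total 15; genotype as the only term; two-sided quasi-likelihood test, Benjamini-Hochberg adjustment over 15826 genes). Standard errors and intervals were derived from the fold change and its F statistic. The scripts were tested on simulated data. DESeq2 1.42.0 and limma 3.58.1 were alternatives, beside TMM, total counts, other filters, thinned libraries, left-out replicates, the replicate number as a block and a spline correction (5 degrees of freedom each) for transcript length and GC content. Positions and lengths came from GENCODE M21. The longest coding transcript of each gene gave lengths per kilobase and shared stretches.

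The members and gene lists were chosen with earlier results of these data known. Genes named were Fgfr1, the members, up to 2 rising and 2 falling genes of each list by smallest p, 10 genes of the lists in any case (3 of them also among those called), and the 2 nearest profiles of each member.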

Additional observations from a re-analysis of the deposited data

How the results depend on the processing

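Every mutant library was smaller than every control library. A value of 3 counts was 0.655 CPM in mutant sample 1 and at most 0.0874 CPM in a control sample. With libraries thinned to the smallest total, the log2 fold change of Rps6kb2 was -0.36, against -0.44 in the main fit. Why Rps6kb2 was at 0 in mutant sample 1 was not tested. Each member's fold change was recomputed under 15 alternatives. Eif4ebp2 stayed lower under all 15 and past the study's threshold under 14. The correction for length and GC content gave -0.30 for Eif4ebp2 and turned the sign of Rps6kb1 (-0.29), Rps6kb2 (0.0357), Eif4e (-0.38) and Pdcd4 (-0.11), and it left 0 members past the threshold; the cause was not tested. It also turned the 4E-BP to Eif4e difference to 0.37 and moved that of Eif4ebp1 to Eif4ebp2 to 0.67. The sign of Eif4e turned with TMM (-0.0022) and with total counts (-0.16), which moved the median of all genes to -0.13 and -0.30. An adjusted p under 0.05 was reached by 1 member with total counts and 1 with DESeq2, in both cases Eif4ebp2 (adjusted p = 0.0484 and 0.0457), and its adjusted p over all alternatives ran from 0.0457 to 0.540. Of all 15826 genes tested, 1137 reached it with total counts and 1609 with DESeq2.

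With each replicate left out, the log2 fold change ran from -1.35 to 0.11 for Rps6kb2 (0.11 without mutant replicate 1), from -0.10 to 0.26 for Eif4e, from -0.96 to -0.63 for Eif4ebp2 and from 0.47 to 1.02 for Eif4ebp1. For Rps6kb1 it ran from 0.0087 (without mutant replicate 3) to 0.552, and for Pdcd4 from 0.0346 (without mutant replicate 1) to 0.4689. Eif4ebp1 reached the threshold without mutant replicate 2, which made 2 members past it, and 1 passed without each other library. The log2 difference of 4E-BP to Eif4e ran from -0.46 to 0.0648, that of Pdcd4 to Eif4a1 from -0.12 to 0.42, that of Eif4ebp1 to Eif4ebp2 from 1.12 to 1.78 and that of Rps6kb1 to Rps6kb2 from 0.47 to 1.99.

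The sources used here do not say what a shared replicate number stands for. Deviations from the group means correlated weakly between same-numbered samples (r = 0.0742, 0.0228 and 0.0883) and between differently numbered ones (-0.0748 to -0.00129). Each sample correlated best with its own number. Some matching of samples must come out best, paired or not, so these weak correlations cannot show whether a number marks a pair. With the replicate block, the log2 fold change of Eif4ebp2 was -0.76, 1 member passed the threshold, and 2743 genes did, against 3137 without it.

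For other named genes, all examined after their values were seen, the correction turned Rps6 (-0.0051), Eif4a1 (-0.24), Larp1 (0.32), Mtor (0.27), Rptor (0.0531) and Mknk1 (0.10). Eif4a1 also turned with total counts (-0.0746). With each replicate left out, Eif4a1 ran from -0.0225 to 0.33 and Mknk1 from -0.68 to 0.38.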
